A study of Mus musculus with 24 samples.

Results

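The malic enzyme genes Me1, Me2 and Me3 are represented by 8 of the 55681 probes of a mouse expression array, and these probes are described here over 24 arrays of mammary gland RNA. Members were taken by gene symbol among 34797 gene and probe names, and all 8 probes that carry one of the 3 symbols are reported: 3 of Me1, 2 of Me2 and 3 of Me3. The genes were selected on measured values, because probes of Me1 had shown a very large difference between sham BALB/c and sham SPRET/EiJ mice at 4 weeks. That contrast is therefore given as a description with no test, and the strain difference was tested on irradiated mice, which the selection did not use. Female mice received 10 cGy of X-rays to the whole body (LDIR) or a sham treatment at 8 to 9 weeks of age. BALB/c glands were collected after 2, 4 or 8 weeks and SPRET/EiJ glands after 4 weeks, with 3 mice in each of the 8 groups and 1 array per mouse. BALB/c is a long-established laboratory strain of the house mouse, whereas SPRET/EiJ descends from wild Mus spretus, another mouse species. The RNA came from whole tissue, so that a lower level of a transcript per cell and fewer cells that make it cannot be told apart.

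Malic enzymes convert malate to pyruvate and carbon dioxide and pass the released hydrogen to a cofactor. Me1 encodes the cytosolic enzyme, which makes NADPH for the synthesis of fatty acids and is abundant in lipid-forming tissues such as fat. Me2 and Me3 encode mitochondrial enzymes, of which ME2 prefers NAD and ME3 uses NADP. The mouse mammary gland is embedded in a fat pad, so a sample of it holds adipocytes beside epithelium.

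The Me1 probes differ in where they lie along the transcript, and their sequences are shown because they gave unlike pictures in SPRET/EiJ. A Me3 probe is shown beside them as a member with readings in both strains. All are probe sequences as listed for the array, with positions on the mm9 build. They are printed in the sense of the transcript, 5′ to 3′, in lower case with no part marked. Their bases were not compared with that build here. The first Me1 probe starts at position 1729 of the Me1 transcript and lies at chr9:86480571-86480630 on the minus strand. The other Me1 probes start at positions 3030 (chr9:86475215-86475274) and 3168 (chr9:86475077-86475136), and only their first 30 bases are printed. The Me3 probe starts at position 1811 (chr7:97000311-97000370, plus strand).
Me1 probe 1729: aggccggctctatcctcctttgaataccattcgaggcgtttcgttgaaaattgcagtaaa
Me1 probe 3030: ttctgtgtatctagagactcctgactttga
Me1 probe 3168: cctaatgacaacttgtgactaacggtttct
Me3 probe 1811: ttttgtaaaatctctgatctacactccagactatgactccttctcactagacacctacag

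Each probe is called below by its start position in the transcript. The 1729 and 3030 probes of Me1 lie 1301 bases apart in the transcript but 5356 bases apart in the genome, so 4055 genomic bases between them are not part of the transcript. The 3030 and 3168 probes lie 138 bases apart in both. The 1729 probe has 2 reading frames without a stop codon, the 3030 probe has 1, and the 3168 probe has 0. The remaining Me3 probes start at positions 1913 (chr7:97000413-97000472) and 3389 (chr7:97001889-97001948), at the same distances in the transcript as in the genome. None of the 8 probes shares a run of 20 bases, on either strand, with a probe outside this set.

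Levels are log2 intensities from which the 75th percentile of the array was subtracted, so a level of 0 equals that percentile, and differences are differences of these log2 levels. By the call of the scanner software, 57.1% to 72.6% of the probes of an array stood well above background. The 24 arrays lay on 3 slides, and all 6 SPRET/EiJ arrays shared a slide with the B and C arrays of LDIR BALB/c at 8 weeks. A different slide held the BALB/c arrays of 2 weeks and sham A and B of 4 weeks. The remaining slide held sham C and all LDIR arrays of BALB/c at 4 weeks, and all sham arrays and LDIR A of 8 weeks. The summed level of 10 white adipocyte markers lay between 10.21 and 11.93 (log2) on the 24 arrays. Of the 10, Plin1 differed most between the strains after LDIR at 4 weeks, at 5.63 in BALB/c and 1.55 in SPRET/EiJ (adjusted p = 0.00365 by limma). Plin1 alone had an adjusted p under 0.05, and 6 of the 10 read higher in BALB/c, with a median difference of 0.23 over the list. The summed level of 8 mammary epithelium markers was 6.90 to 8.47 in BALB/c and 4.77 to 6.91 in SPRET/EiJ, and its part in the strain differences below was not tested. The summed level of 8 lymphocyte markers was 6.37 to 6.88 on 3 arrays, namely sham A of BALB/c at 8 weeks, LDIR B of BALB/c at 8 weeks and LDIR A of SPRET/EiJ, against 3.71 to 4.80 on the other 21. Their part in the values was not tested, and results that turn on one of these 3 arrays are given with and without it.

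Me1 was bright in BALB/c at each probe, and in SPRET/EiJ it was bright at the upstream probe but near background at the 2 downstream probes. In BALB/c the 3168 probe lay between 3.87 and 8.59 over 18 arrays (median 6.89), which corresponds to 9040 to 130000 intensity units. In SPRET/EiJ it lay between -6.85 and -4.15 over 6 arrays, or 3.87 to 23.0 intensity units, and it was well above background on 4 of them. The strains did not overlap and were separated by more than 8 log2 units. The 3030 probe gave 5570 to 86300 units in BALB/c and 4.77 to 18.1 units in SPRET/EiJ, where it was well above background on 3 of 6 arrays. The 1729 probe was well above background on all 24 arrays. It lay between 1.79 and 7.04 in BALB/c (median 5.02) and between 4.82 and 7.22 in SPRET/EiJ (median 6.65), so the strains overlapped and the brightest array was a SPRET/EiJ array.

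**Figure D1:**
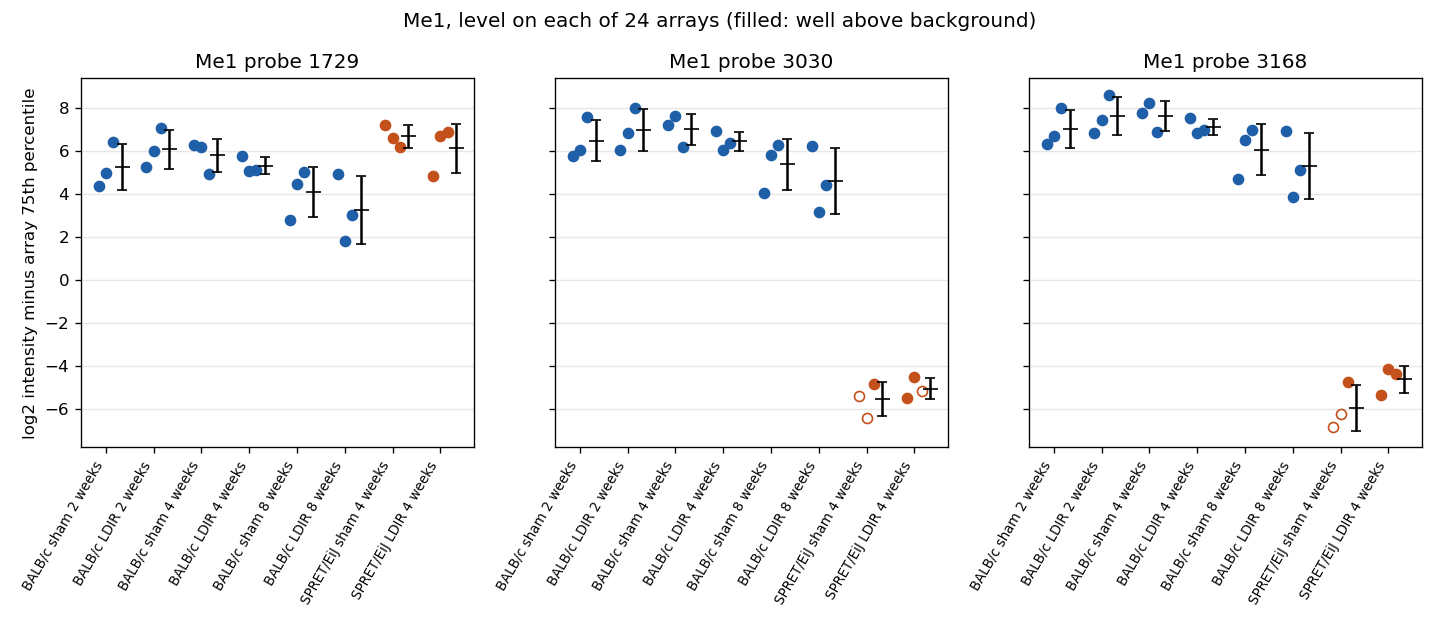
Level of the 3 Me1 probes on each of the 24 arrays (y axis, log2 intensity minus the array's 75th percentile) by group (x axis), with the mean and SD of 3 arrays as black bars and open points for spots not well above background. The 1729 probe reads between 4.82 and 7.22 on the SPRET/EiJ arrays, whereas the 3030 and 3168 probes stay below -4 there.

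Irradiated mice at 4 weeks gave the test of the strain difference. The 3168 probe read 7.55, 6.82 and 6.96 on the A, B and C arrays of LDIR BALB/c and -5.34, -4.15 and -4.38 on those of LDIR SPRET/EiJ. It was 11.73 log2 units higher in BALB/c (SE 0.38, n = 3 and 3), or 3407-fold, with adjusted p = 0.000113 by limma. The 3030 probe read 6.91, 6.05 and 6.36 against -5.49, -4.50 and -5.18, with 2 of the 3 SPRET/EiJ arrays well above background. It was 11.50 higher in BALB/c (SE 0.36, adjusted p = 0.000110 by limma), or 2890-fold. With the SPRET/EiJ signal this close to background the size depends on the background correction, and normexp gave 9.67 for the 3168 probe and 8.98 for the 3030 probe. The 1729 probe read 5.77, 5.04 and 5.13 in BALB/c and 4.82, 6.68 and 6.88 in SPRET/EiJ. Its groups overlapped, and the difference of -0.81 (95% confidence interval -2.17 to 0.55) did not pass the test (adjusted p = 0.445 by limma). Of the 8 malic enzyme probes, 2 passed the thresholds set for strains (an unadjusted p under 0.001 and a change over 1.5-fold), against 5.68% of the 55680 probes tested. The same 2 passed an adjusted p of 0.05, against 11.1% of all probes. The genes were chosen for the Me1 difference of sham mice of the same strains, so these counts are a description.

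The 2 downstream Me1 probes stood at the extreme of the array in this comparison. By the size of the BALB/c excess the 3168 probe ranked 1 and the 3030 probe 4 of 55680, and 6 probes of other names also had a difference of 10 or more. The spread of the strain difference within the Me1 gene was wide as well. Over 7653 genes with 2 or more probes well above background on all 3 LDIR BALB/c arrays, the gap between the highest and lowest strain difference had a median of 0.615 and a 95th percentile of 2.82. The gap of Me1 was 12.55, rank 1 of these genes, and 61 genes (0.797%) had a gap over 5. The gap between the 2 bright Me3 probes was 0.28. The filter read BALB/c only, the strain in which the downstream Me1 probes are bright, and these ranks describe genes that were chosen for a large strain difference and are not tests.

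In the sham mice that served for the selection, the difference was 13.57 for the 3168 probe, 12.56 for the 3030 probe and -0.88 for the 1729 probe. At each of the 2 downstream probes only 1 of the 3 sham SPRET/EiJ arrays was well above background, so the sizes of these differences rest mostly on values near background. The sham SPRET/EiJ arrays read -6.85, -6.22 and -4.76 at the 3168 probe. At the 1729 probe the same arrays read 7.22, 6.61 and 6.18, against 6.29, 6.16 and 4.91 in sham BALB/c.

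**Figure D2:**
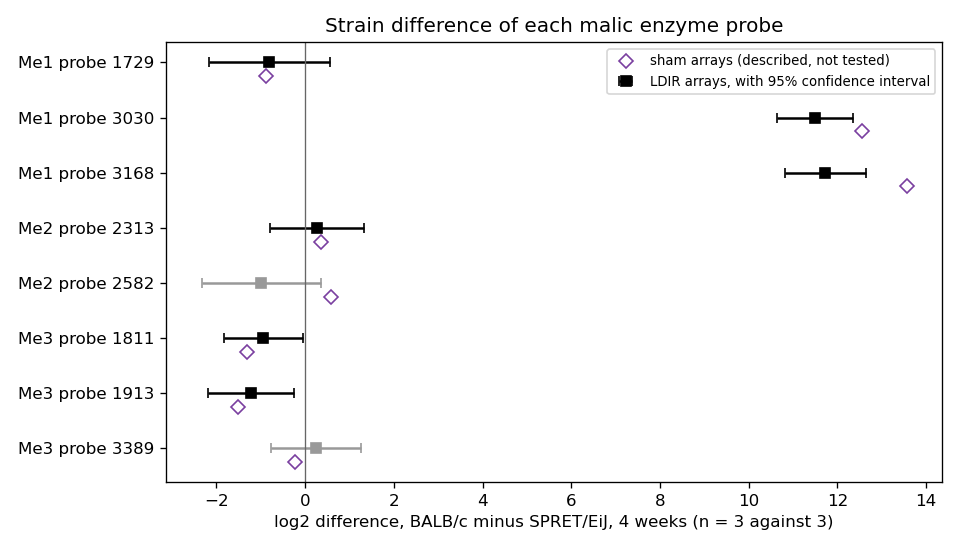
BALB/c minus SPRET/EiJ log2 difference at 4 weeks (x axis) for each of the 8 malic enzyme probes (y axis), with squares and 95% confidence intervals for LDIR arrays and open diamonds for the sham arrays that were used for selection, where grey marks the 2 probes well above background on at most 1 of 24 arrays. The 3030 and 3168 probes of Me1 lie at 11.50 and 11.73 on the LDIR arrays, and the other 6 probes lie between -1.22 and 0.27.

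The residual signal of the downstream probes in SPRET/EiJ was small but above that of most negative control spots, of which each array carried 308. On the 6 SPRET/EiJ arrays between 0 and 5 of them were at or above the 3168 probe, and between 0 and 3 were at or above the 3030 probe. Across these 6 arrays the 3168 and 1729 probes had Pearson r = -0.169 and Spearman rho = -0.086, and r was 0.161 without the 2 arrays farthest from the median. In BALB/c the same pair had r = 0.992 and rho = 0.934 (n = 18 arrays of the same tissue and scaling), and r was 0.983 without the 2 farthest arrays. The 3168 level minus the 1729 level of the same array ran from 1.47 to 2.09 in BALB/c and from -14.07 to -10.16 in SPRET/EiJ. The offset between a pair of probes also holds their unequal brightness on an array, so only its difference between the strains is read, and the ranges of the strains did not overlap. The SPRET/EiJ sequence under the 3 probes was not used here, so that less transcript in its downstream part and weaker binding to these probes cannot be told apart.

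The difference of the downstream probes was also large within a slide. Since all SPRET/EiJ arrays lay on 1 slide and no BALB/c array of 4 weeks did, strain and slide cannot be told apart at 4 weeks. The B and C arrays of LDIR BALB/c at 8 weeks shared that slide, and against them the difference was 9.10 for the 3168 probe and 8.85 for the 3030 probe (adjusted p = 0.00915 by limma for both). In that comparison the time after LDIR differs and the B array is one with high lymphocyte markers. There the 1729 probe differed by -3.73, lower in BALB/c, and did not pass the strain thresholds (adjusted p = 0.0680 by limma). Leaving out LDIR A of SPRET/EiJ gave differences of 11.38 and 11.28 for the 3168 and 3030 probes at 4 weeks. For the 1729 probe it gave -1.46, which missed the strain thresholds (adjusted p = 0.0235 by limma).

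Genes near Me1 on chromosome 9 were measured on the same arrays. Within 1 Mb of the Me1 probes lie 28 probes of 18 other names, of which 19 stood well above background on each of the 3 LDIR arrays of at least 1 strain. The strain differences of these 19 ran from -1.15 to 2.03 with a median of -0.17. Of the 28, 3 probes passed the thresholds, all higher in BALB/c, against 5.68% of all probes. These were 1 of 2 probes of Pgm3, a phosphoglucomutase gene of amino sugar synthesis (1.66, SE 0.29), and 2 of 3 probes of 4922501C03Rik (1.96, SE 0.33, and 2.03, SE 0.31). The second Pgm3 probe differed by -0.24 (SE 0.27) and the third 4922501C03Rik probe by -0.17 (SE 0.28), so these genes too gave unlike values among their probes.

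Among the 31896 probes well above background on each of the 18 BALB/c arrays, the 5 genes most like the 3168 probe of Me1 were genes of lipid synthesis or of the supply of its substrates. Likeness was Pearson's r over the 18 arrays, which share the tissue and the scaling, and its median over those probes was 0.16. Acaca, the acetyl-CoA carboxylase that makes malonyl-CoA, had r = 0.990 (rho = 0.915). Fasn, fatty acid synthase, had r = 0.984 (rho = 0.957), and Acss2, which makes cytosolic acetyl-CoA from acetate, had r = 0.980 (rho = 0.967). Brp44l, now Mpc1, a subunit of the mitochondrial pyruvate carrier, had r = 0.979 (rho = 0.922), and Elovl6, which elongates palmitate, had r = 0.975 (rho = 0.981). Leaving out the 2 arrays farthest from the Me1 median left r between 0.957 and 0.979. The 3168 probe also moved with the summed white (r = 0.808) and brown (r = 0.849) adipocyte markers, and against the lymphocyte markers (r = -0.731). Without the BALB/c arrays with high lymphocyte markers these r were 0.543, 0.65 and 0.001. The part of tissue makeup in this likeness was not tested.

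All 5 genes were bright in SPRET/EiJ as well. Fasn lay between 4.54 and 6.50 in SPRET/EiJ and between 2.23 and 6.23 in BALB/c, and Elovl6 lay between 6.18 and 8.41 against 1.54 to 7.19. Over the 6 SPRET/EiJ arrays the 1729 probe gave r = 0.998 with Acss2, 0.977 with Brp44l, 0.960 with Acaca, 0.954 with Elovl6 and 0.921 with Fasn. LDIR A of SPRET/EiJ was the lowest SPRET/EiJ array for all 5 genes and for the 1729 probe. Without the 2 arrays farthest from the 1729 median, r was 0.982 for Acss2, 0.893 for Brp44l and 0.75 for Acaca, but -0.078 for Fasn and 0.404 for Elovl6, so the relation with the last 2 rests on those arrays. With the 3168 probe, near background, r ran from -0.209 to 0.037 over 6 arrays and from 0.861 to 0.965 over the 4 left without the 2 farthest from its median, so no order can be read from it. In the LDIR strain comparison none of the 5 genes passed the thresholds, with differences from -0.13 (Acaca, adjusted p = 0.902 by limma) to -2.32 (Elovl6, adjusted p = 0.0489 by limma).

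**Figure D3:**
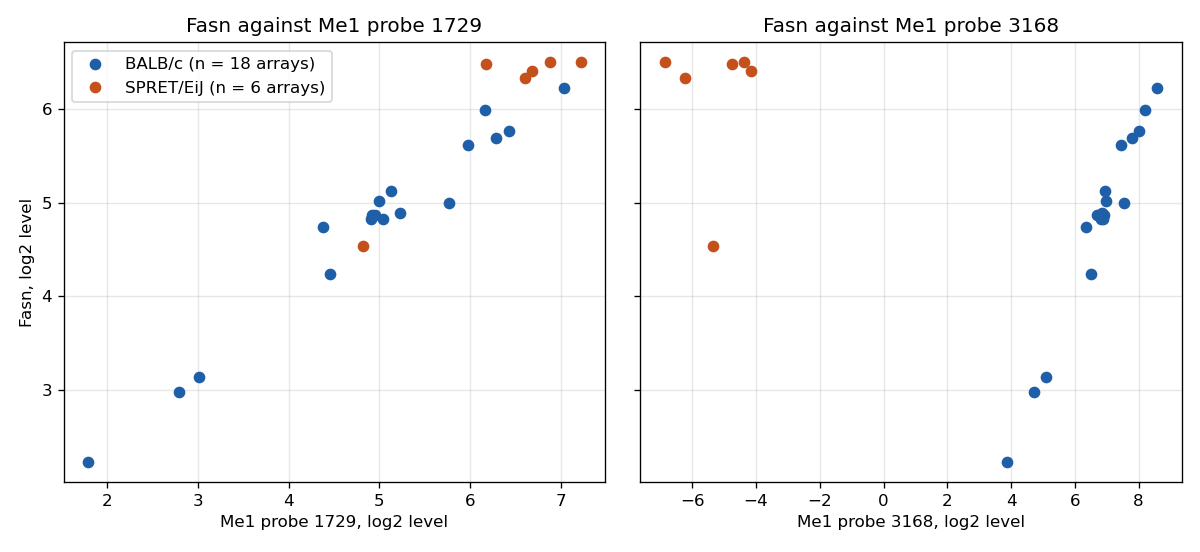
Level of Fasn (y axis, log2) against the 1729 probe (left x axis, log2) and the 3168 probe (right x axis, log2) of Me1, each point 1 array, with 18 BALB/c arrays in blue and 6 SPRET/EiJ arrays in orange. In the left panel the SPRET/EiJ arrays lie at Me1 levels of 4.82 to 7.22, within or just above the BALB/c range, and in the right panel they stand apart at Me1 levels below -4 while Fasn reads 4.54 to 6.50.

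No Me1 probe passed the thresholds for radiation (an unadjusted p under 0.05 and a change over 1.5-fold) in any of the 4 comparisons of LDIR with sham. At 2 weeks the 1729 probe read 5.23, 5.98 and 7.04 on the A, B and C arrays of LDIR and 4.38, 4.95 and 6.43 on those of sham, a difference of 0.83 (SE 0.65, adjusted p = 0.893 by limma). No malic enzyme probe passed or had an unadjusted p under 0.05 here by limma or by the methods' t-test, against 3.11% of all probes passing. Each of the 3 LDIR arrays exceeded the sham array of its letter at the 1729 and 3168 probes, but no label pairs arrays by letter. Deviations of LDIR and sham arrays correlated at 0.167 (A), 0.481 (B) and 0.172 (C) at this time. Between the strains after LDIR at 4 weeks they correlated at 0.211, -0.005 and 0.098, so a pairing is not established. With the letter as a block the 1729 and 3168 probes passed the unadjusted threshold, at 0.83 and 0.61, with adjusted p = 0.730 for both by limma. The 1729 probe also passed without sham C (1.42, adjusted p = 0.882 by limma).

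At 4 weeks in BALB/c the 1729 probe differed by -0.47 (SE 0.42) and the 3168 probe by -0.51 (SE 0.38) after LDIR, and 4.83% of all probes and 0 member probes passed. Of the members, 2 had an unadjusted p under 0.05, the 2313 probe of Me2 and the dim 3389 probe of Me3, both under 1.5-fold, and 0 passed by the methods' t-test. Without sham C, the lowest sham array, the Me1 differences became -0.91 and -0.88 and passed the unadjusted threshold. By limma these gave adjusted p = 0.305 and adjusted p = 0.333. Sham C was the only sham array of 4 weeks on the slide of the LDIR arrays, so without it LDIR and slide cannot be told apart. At the 1729 probe sham C read 4.91, against 5.77, 5.04 and 5.13 after LDIR. In a joint fit of all arrays with slide as a block, the differences turned to 0.41 and 0.23. At 8 weeks the differences were -0.84 (SE 0.95) and -0.77 (SE 0.94), against 1.81% of all probes passing and 0 member probes at an unadjusted p under 0.05. The LDIR arrays of 8 weeks ranged from 1.79 to 4.92 at the 1729 probe, and the lowest was the B array with high lymphocyte markers. Without it the differences were -0.11 and -0.06. The lowest sham array, A at 2.79, also had high lymphocyte markers. LDIR B and C of 8 weeks lay on another slide than the sham arrays of that time.

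In SPRET/EiJ, 2.20% of all probes passed after LDIR, and 0 member probes passed or had an unadjusted p under 0.05 by limma. The 1729 probe differed by -0.54 (SE 0.59), and by 0.11 without LDIR A. The 3168 probe, near background in this strain, read -5.34, -4.15 and -4.38 after LDIR against -6.85, -6.22 and -4.76 in sham, a difference of 1.32 (SE 0.59, adjusted p = 0.972 by limma). It passed the unadjusted threshold without LDIR A (1.68) or sham C (1.91), with adjusted p = 1.00 and adjusted p = 0.981 by limma.

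The strain by radiation interaction passed for 3.55% of all probes and for 2 member probes, with adjusted p = 0.957 by limma for both. These were the 3168 probe of Me1 (-1.83, SE 0.75) and the 2582 probe of Me2 (-1.56, SE 0.64), the first near background in SPRET/EiJ and the second in both strains, and 0 passed by the methods' t-test. The 3168 probe no longer passed without 1 of the sham A or B arrays of BALB/c (-1.75 and -1.54), LDIR B or C of BALB/c (-1.69 and -1.76), LDIR B or C of SPRET/EiJ (-1.60 and -1.71), or sham A or B of SPRET/EiJ (-1.38 and -1.69). The 1729 probe gave an interaction of 0.07 (SE 0.78).

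From 4 to 8 weeks in sham BALB/c the 1729 probe of Me1 went from 6.29, 6.16 and 4.91 to 2.79, 4.45 and 5.0. It was 1.71 log2 units lower at 8 weeks (SE 0.68, adjusted p = 0.338 by limma). It was the single member probe past the unadjusted threshold, against 13.8% of all probes. Sham A and B of 4 weeks lay on another slide than the sham arrays of 8 weeks, so time and slide are largely mixed here. Sham C of 4 weeks, on the slide of the 8-week sham arrays, read 4.91, within their range. The 3030 and 3168 probes differed by -1.64 (SE 0.68) and -1.56 (SE 0.67). Sham A of 8 weeks was the lowest at all 3 probes and is one with high lymphocyte markers, and without it the 1729 probe differed by -1.06 (adjusted p = 0.233 by limma). The call was also lost without sham A (-1.46) or B (-1.52) of 4 weeks or sham B of 8 weeks (-1.89). By the methods' t-test 0 member probes passed. From 2 to 4 weeks the 1729 probe differed by 0.53 (SE 0.61) and the 3168 probe by 0.61 (SE 0.52), and the latter passed without sham C of 2 weeks (1.1). There 3.04% of all probes passed and 1 member probe did, the 2582 probe of Me2, which was not well above background on any of the 6 arrays and whose change is therefore not given as a fold.

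Me2, the mitochondrial NAD-preferring enzyme, was measured by 1 usable probe and showed no strain difference past the thresholds. The 2313 probe (chromosome 18, 73929776 to 73929835, minus strand) was well above background on all 24 arrays. The 2582 probe, annotated to a cDNA on the opposite strand (73977802 to 73977861, plus strand), was well above background on 1 array, LDIR A of SPRET/EiJ. At 4 weeks after LDIR the 2313 probe read -0.33, -0.38 and -0.33 in BALB/c and 0.42, -1.12 and -1.15 in SPRET/EiJ. The difference was 0.27 (95% confidence interval -0.80 to 1.34, adjusted p = 0.737 by limma). Leaving out LDIR A of SPRET/EiJ made it 0.79, higher in BALB/c but short of the strain thresholds (adjusted p = 0.0263 by limma). In sham mice the difference was 0.36. In each of these comparisons the mean of Me2 was lower in SPRET/EiJ, but against BALB/c LDIR of 2 weeks the difference was -0.0051. A relation between the Me2 level and the Me1 signal was not tested.

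The Me2 level stood apart on the 3 arrays with high lymphocyte markers. It read 0.82 and 1.13 on the 2 such BALB/c arrays against -0.89 to -0.22 on the other 16, and 0.42 on the SPRET/EiJ array against -1.27 to -0.98 on the other 5. All 8 lymphocyte markers were well above background on those 3 arrays, and Ms4a1, a B cell antigen, read at least 3.90 there and at most -2.88 elsewhere. Over the 16 other BALB/c arrays Me2 and the summed markers had r = 0.076 and rho = 0.112. The part of lymphocytes in the Me2 values was not tested.

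After LDIR the 2313 probe of Me2 differed by -0.01 (SE 0.21) at 2 weeks and -0.08 (SE 0.64) at 8 weeks in BALB/c, and by 0.47 (SE 0.46) in SPRET/EiJ. Without LDIR A the SPRET/EiJ difference was -0.05. At 4 weeks in BALB/c the probe read -0.73, -0.67 and -0.77 in sham and -0.33, -0.38 and -0.33 after LDIR. The groups did not overlap, and the difference of 0.38 (SE 0.14, adjusted p = 0.783 by limma) was under 1.5-fold. From 4 to 8 weeks in sham mice it differed by 0.73 (SE 0.40), by 0.32 without sham A of 8 weeks, and by 1.02, past the unadjusted threshold, without sham B of 8 weeks.

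**Figure D4:**
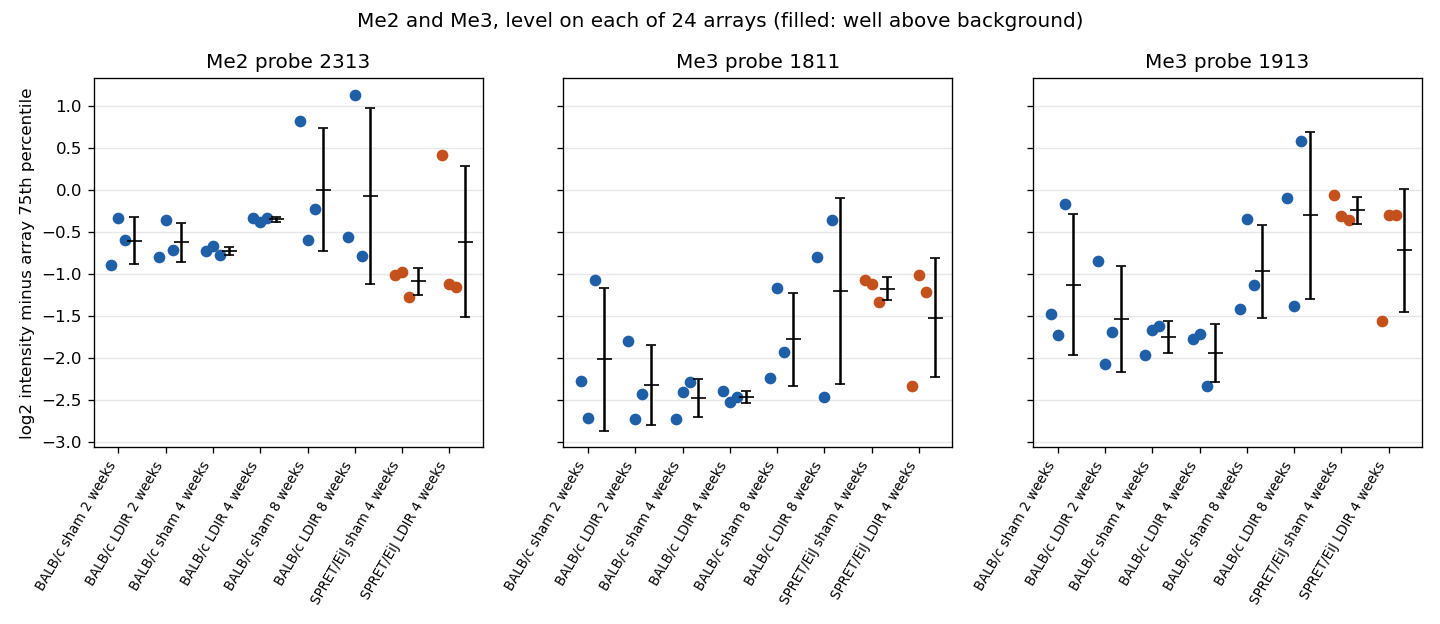
Level of the Me2 probe and the 2 bright Me3 probes on each of the 24 arrays (y axis, log2 intensity minus the array's 75th percentile) by group (x axis), with the mean and SD of 3 arrays as black bars. The 3 highest Me2 points, 0.42, 0.82 and 1.13, are the arrays with high lymphocyte markers, and at 4 weeks the 1913 points of Me3 in SPRET/EiJ lie above those of BALB/c.

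Me3, the mitochondrial NADP-dependent enzyme, read higher in SPRET/EiJ than in BALB/c at 4 weeks, by an amount that did not pass the strain thresholds. After LDIR the 1913 probe read -1.77, -1.72 and -2.34 in BALB/c and -1.56, -0.30 and -0.30 in SPRET/EiJ, so the groups did not overlap, with LDIR A the lowest SPRET/EiJ array. The difference was -1.22 (SE 0.41, adjusted p = 0.117 by limma), or 2.33-fold. The 1811 probe read -2.39, -2.53 and -2.47 against -2.33, -1.01 and -1.22 and differed by -0.94 (SE 0.38, adjusted p = 0.177 by limma). Without LDIR A of SPRET/EiJ the 1811 probe passed (-1.35, adjusted p = 0.00859 by limma), and the 1913 probe came to -1.64 (adjusted p = 0.0131 by limma), just short of the unadjusted strain threshold. In sham mice the differences were -1.51 for the 1913 probe and -1.30 for the 1811 probe. The 3389 probe was well above background on 0 of 24 arrays. Against the B and C arrays of LDIR BALB/c at 8 weeks, which shared the slide, the sign turned to 0.32 for the 1913 probe and 0.11 for the 1811 probe.

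Within BALB/c the Me3 level moved with skeletal muscle markers. The summed level of 6 muscle markers lay between 0.08 and 9.22 (log2) in BALB/c and between -1.35 and 2.27 in SPRET/EiJ. The highest muscle level, 9.22 on LDIR C of 8 weeks, went with the highest 1913 level, 0.58, and the next, 8.60 on sham C of 2 weeks, went with -0.17. Over the 18 BALB/c arrays r was 0.769 and rho 0.686 for the 1913 probe, and r was 0.637 without the 2 arrays farthest from the muscle median. For the 1811 probe r was 0.746 and rho 0.582. The Me3 level also moved with the summed mammary epithelium markers in BALB/c, with r = 0.539 and rho = 0.639 for the 1811 probe and r = 0.418 and rho = 0.373 for the 1913 probe. At 4 weeks the 6 BALB/c arrays had muscle levels of 0.08 to 4.46 and read -2.34 to -1.62 at the 1913 probe. In SPRET/EiJ 5 of the 6 arrays read -0.36 to -0.06, at muscle levels of 2.27 or less, and between 1 and 5 of the 6 markers were well above background on a SPRET/EiJ array. The part of muscle or epithelium in the Me3 values was not tested.

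**Figure D5:**
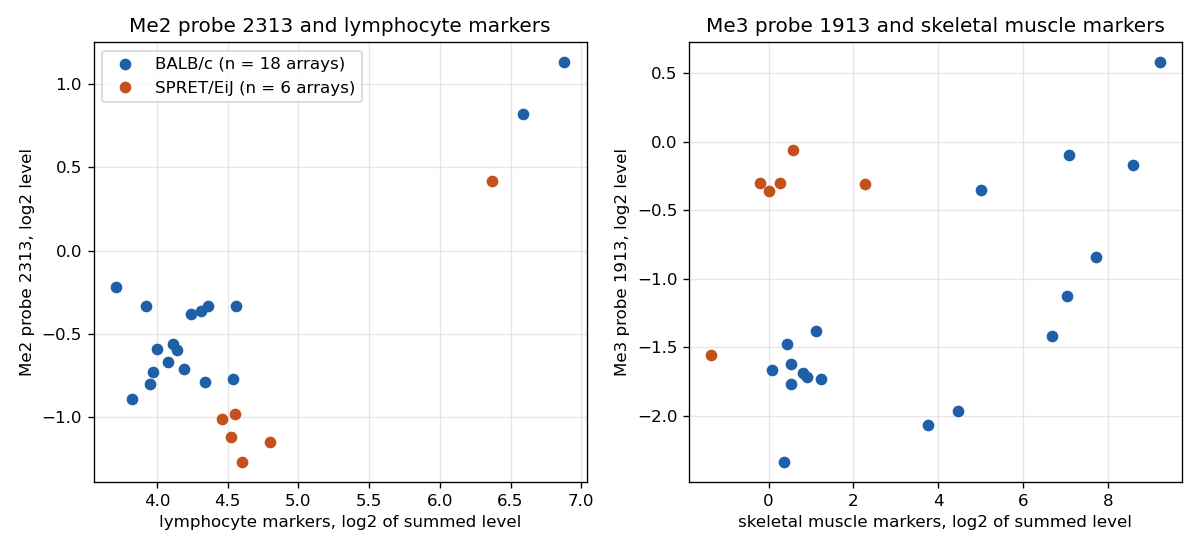
Me2 probe 2313 (y axis, log2) against the log2 summed level of 8 lymphocyte markers (left) and Me3 probe 1913 against that of 6 skeletal muscle markers (right), each point 1 array, with 18 BALB/c arrays in blue and 6 SPRET/EiJ arrays in orange. In the left panel the 3 arrays with lymphocyte levels of 6.37 to 6.88 have the 3 highest Me2 levels, and in the right panel 5 SPRET/EiJ arrays read -0.36 to -0.06 at muscle levels of 2.27 or less.

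No bright Me3 probe passed the thresholds after LDIR. The 1913 probe differed by -0.41 (SE 0.50) at 2 weeks, -0.19 (SE 0.23) at 4 weeks and 0.67 (SE 0.58) at 8 weeks in BALB/c, and by -0.48 (SE 0.39) in SPRET/EiJ. At 8 weeks it read -0.10, -1.38 and 0.58 after LDIR and -1.42, -0.35 and -1.13 in sham. Without LDIR B, one with high lymphocyte markers and the lowest muscle level of its group, the difference was 1.21 and passed the unadjusted threshold (adjusted p = 0.957 by limma). From 4 to 8 weeks in sham BALB/c the 1913 probe differed by 0.79 (SE 0.34), and by 1.01, past the unadjusted threshold, without sham A of 8 weeks (adjusted p = 0.137 by limma). The summed muscle level was 0.08 to 4.46 on the sham arrays of 4 weeks and 5.0 to 7.03 on those of 8 weeks.

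Other genes of the same routes were read from lists by their brightest probes. Of 14 other genes of routes that supply NADPH, such as G6pdx and Pgd of the pentose phosphate route and Idh1, 0 passed the thresholds in the LDIR strain comparison, and the median difference was -0.20 against -0.05 over all probes. Of 16 genes that move citrate, malate and pyruvate, such as the citrate carrier Slc25a1 and the citrate lyase Acly, 0 passed, with a median of -0.21. Of 18 genes of fatty acid synthesis and its control, 0 passed, and all 18 read lower in BALB/c, with a median of -0.58. Without LDIR A of SPRET/EiJ, 6 of these 18 passed, all lower in BALB/c, with a median of -1.1, and 7.82% of all probes passed. The same left-out array gave 1 gene of the NADPH routes and 2 transport genes, again lower in BALB/c.

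Over time in sham BALB/c, from 4 to 8 weeks, 8 of the 18 fatty acid synthesis genes fell and 0 rose past the unadjusted threshold, with a median of -1.02 against 0.05 over all probes and 13.8% of all probes passing. Among the 8 were Acaca (-1.44, SE 0.53) and Srebf1, a transcription factor of lipid synthesis (-1.30, SE 0.48). Of the citrate, malate and pyruvate genes 3 rose and 3 fell, and of the genes of NADPH routes 1 rose and 1 fell. Without sham A of 8 weeks, 4 of the 18 fatty acid genes fell and 1 rose, with a median of -0.62 against -0.21 over all probes and 20% of all probes passing. Of 10 white adipocyte markers 7 fell with that array and 7 without it, among them Adipoq, an adipocyte hormone gene (-0.93, SE 0.36 with it). Of 6 brown adipocyte markers 5 fell with it (median -2.45) and 5 without it (median -2.09). Of 6 skeletal muscle markers 5 rose with it and 4 without it. Whether the makeup of the tissue had a part in the lower Me1 level at 8 weeks was not tested. Sham A and B of 4 weeks lay on another slide than sham of 8 weeks, so time and slide are mixed in these lists.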

How the data were processed

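RNA of 24 mammary glands was hybridised in 1 colour to Agilent arrays. The authors deposited, per the file headers, scanner intensity values of Feature Extraction 10.10.1.1, background-subtracted, with probes placed on mm9. They also deposited log2 values normalized to the 75th percentile. Of 59305 spots on an array, outlier spots (3777 over all arrays) were left out, and 0 were saturated. Each intensity was divided by its array's 75th percentile, taken to log2 and averaged over the spots of a probe (55681 probes). Differences were tested with limma 3.58.1 (R 4.3.3), using the 6 arrays compared (12 for the interaction), and p-values were adjusted by Benjamini-Hochberg over all probes. Thresholds were those of the methods. In simulated data with 200 probes changed by 2 (log2), 60.0% were recovered for LDIR BALB/c against LDIR SPRET/EiJ (55623 probes) and 95.5% for LDIR against sham in BALB/c at 4 weeks (55634 probes), and 66 and 1936 unchanged probes passed the thresholds. P-values measure the spread between 3 mice a group, and that number limits the precision. No label pairs arrays by replicate letter. Among the comparisons of LDIR with sham, correlations of deviations were positive for all letters only at 2 weeks (0.167, 0.481 and 0.172 over 29395 probes). These values do not establish a pairing. Other settings were another background correction (normexp, offset 50), quantile normalization, the deposited log2 values, keeping outlier spots, keeping only detected probes, the methods' t-test, blocks for replicate letter or slide, a joint fit of 24 arrays, other LDIR groups of BALB/c, and leaving out each array. Leaving out the arrays with high lymphocyte markers was added after seeing the data. Members, lists and tests were chosen with earlier results of these data known. Named genes are the members, the 5 genes most like Me1, those near it that passed, and list examples chosen after their values were seen. Of the list genes, Mpc1 and Mpc2 were found under the older names Brp44l and Brp44. Figures used matplotlib 3.10.9.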

Additional observations from a re-analysis of the deposited data

Results flagged for a closer look

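In a test of the difference between strains in the change after LDIR at 4 weeks, 2 of 8 member probes had an unadjusted p under 0.05. Both also passed 1.5-fold, as did 3.55% of all probes, and 0 member probes passed by the methods' t-test. The difference was -1.83 for the 3168 probe of Me1, which read 13.9 to 23.0 intensity units after LDIR and 3.87 to 14.5 in sham SPRET/EiJ. It was -1.56 for the 2582 probe of Me2, which was well above background on 1 of 24 arrays. Neither passed the adjustment over all probes (adjusted p = 0.957 by limma for both). The 1729 probe of Me1, bright in both strains, gave 0.07 (SE 0.78).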

How the results depend on the processing

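Over 34 results, 580 alternative values were computed, of which 502 kept direction and side of the threshold, 34 turned sign, 21 lost and 23 gained the threshold. The strain difference of the 3168 probe of Me1 passed in all settings (9.10 to 12.25), as did that of the 3030 probe (8.85 to 12.02). For the other probes the cause of a turned sign was not tested. In the strain comparison Me2 was -0.0051 against BALB/c LDIR of 2 weeks, and against 8 weeks the 1811 and 1913 probes of Me3 were 0.32 and 0.42, or 0.11 and 0.32 on the shared slide. With 24 arrays and slide as a block the LDIR differences of Me1 were 0.41 (1729) and 0.23 (3168) at 4 weeks and 0.84 and 0.85 at 8 weeks. Normexp gave 0.0011 for Me2 at 2 weeks, and quantile normalization gave an interaction of -0.0042 for the 1729 probe. Without the arrays of high lymphocyte markers the SPRET/EiJ differences were 0.11 (1729) and -0.047 (Me2), and the interactions were -0.58 (1729), 0.43 (Me2) and -0.13 (1913). With each array left out in turn, ranges that crossed 0 were -0.16 to 0.12 for Me2 and -0.75 to 0.075 for the 1913 probe at 2 weeks, -0.30 to 0.010 for the 1913 probe at 4 weeks and -0.68 to 0.34 for Me2 at 8 weeks. They were -0.92 to 0.11 (1729) and -0.047 to 0.74 (Me2) in SPRET/EiJ, -0.26 to 0.022 for Me2 from 2 to 4 weeks, and -0.58 to 0.45 (1729), -0.36 to 0.43 (Me2) and -0.13 to 0.50 (1913) for the interaction.

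The count of member probes past the threshold, of 8, also moved. The replicate block gave 2 at 2 weeks (against 0), with differences of 0.83 and 0.61 for the 1729 and 3168 probes, 1 in SPRET/EiJ (against 0), 0 from 2 to 4 weeks and 0 from 4 to 8 weeks (against 1 each), and it changed no other count. At 8 weeks after LDIR the count was 1 with quantile normalization and 2 without the arrays of high lymphocyte markers, which gave 1 in SPRET/EiJ. From 2 to 4 weeks it was 0 with normexp, quantile normalization, detected probes only, and 24 arrays with or without the slide block. From 4 to 8 weeks it was 4 with normexp, 4 with detected probes only, 3 with 24 arrays, 2 without the arrays of high lymphocyte markers, and 0 with quantile normalization, the methods' t-test or the slide block. For the interaction (against 2) it was 0 with normexp, the methods' t-test or the slide block, and 1 with quantile normalization, detected probes only, 24 arrays or the arrays of high lymphocyte markers left out. Leaving out single arrays gave 2 to 3 for strain, 0 to 1 at 2 weeks, 0 to 4 at 4 weeks, 0 to 2 at 8 weeks, 0 to 1 in SPRET/EiJ, 0 to 1 from 2 to 4 weeks, 0 to 3 from 4 to 8 weeks and 0 to 3 for the interaction. With 3 arrays a group, and downstream Me1 signals in SPRET/EiJ near background, changes of Me1 after LDIR at those probes in that strain could not be resolved.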
